A study of Mus musculus with 10 samples.

Results

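Crypt epithelium is the proliferating compartment of the small intestine, and 46 genes of the cell cycle were followed in RNA sequencing of whole jejunum. Such genes are not particular to crypt cells, since other dividing cells of the tissue can express them. The genes were taken by symbol, and each of the 46 was found among the 45707 genes listed in the table. Of these, 20 act in G1 and S phase (cyclin E, E2F1, replication licensing, deoxynucleotide synthesis) and 26 in G2 and M phase (mitotic cyclins and kinases, spindle, centromere). A library was made from each of 10 male littermates aged 8 to 12 weeks, of which 5 were Vil-Cre controls and 5 were Vil-Cre:NDI1 mice. Both genotypes carry Villin-Cre, a transgene that expresses Cre recombinase in intestinal epithelial cells, so the controls carry Cre too. Vil-Cre:NDI1 mice additionally carry NDI1 behind a lox-stop-lox cassette at the ROSA26 locus. NDI1 is a yeast (Saccharomyces cerevisiae) NADH dehydrogenase made of a single subunit, which passes electrons from NADH to ubiquinone without mammalian complex I. Every mouse was fasted overnight for 16 to 18 h and gavaged with water as vehicle, and its jejunum was taken 1 h later. The comparison asks whether the yeast enzyme alone, in the absence of drug, altered the levels of the cell cycle genes.

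Intestinal epithelium is renewed from stem cells at the crypt base, whose daughters divide rapidly as transit-amplifying cells before they leave the cycle and climb the villus. Entry into S phase is driven by cyclin E with CDK2, which relieves the retinoblastoma protein's hold on E2F transcription factors and so releases genes for DNA replication. Genes for mitosis are switched on later in the cycle, through the CHR and CCAAT elements of their promoters and the factors B-Myb and FOXM1, and their transcripts decline as cells divide. Levels of both gene groups in a tissue therefore depend on how many cells are cycling and on where in the cycle they are. In bulk tissue, fewer cells of a type and less RNA per cell cannot be told apart.

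Promoter letters of both phases were examined, since the 2 phases are compared throughout. RefSeq promoter windows (GRCm38.p6, 250 bases before to 50 after a start) were at hand for 38 of the 46 genes. Elements were searched on both strands. The E2F core was read as TTTGGCG, or with its middle letters varied as in TTTCCCG, or likewise as in the form TTTCGCG, or finally as in the form TTTGCCG. The CHR was read as TTTGAA or in its other form as TTCGAA, and the CCAAT box by the letters of its name. E2F core forms can overlap each other on opposite strands, as they do once in Mcm5 and once in Mcm6, and each form was counted where it occurred. For 6 genes, the 200 bases directly before the start are printed 5′ to 3′ on the gene's own strand, with every match to an element on either strand in capitals. The G1/S examples are genes of the replicative helicase, Mcm5 (chr8:75109309-75109508, plus strand) and Mcm6 (chr1:128359706-128359905, minus strand). The G2/M examples are the mitotic genes Ccnb2 (chr9:70421555-70421754, minus strand), Kif11 (chr19:37376182-37376381, plus strand) and Mki67 (chr7:135716380-135716579, minus strand). Cenpf (chr1:189688087-189688286, minus strand) is shown because its levels stood apart from those of the other genes.
Mcm5: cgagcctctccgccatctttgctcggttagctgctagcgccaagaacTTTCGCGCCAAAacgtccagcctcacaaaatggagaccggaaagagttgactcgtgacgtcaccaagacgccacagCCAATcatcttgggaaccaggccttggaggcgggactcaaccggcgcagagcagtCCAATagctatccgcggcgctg
Mcm6: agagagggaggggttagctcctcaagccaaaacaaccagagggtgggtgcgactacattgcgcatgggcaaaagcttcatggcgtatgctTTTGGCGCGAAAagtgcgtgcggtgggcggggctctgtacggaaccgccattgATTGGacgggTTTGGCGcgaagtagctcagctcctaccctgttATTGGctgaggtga
Ccnb2: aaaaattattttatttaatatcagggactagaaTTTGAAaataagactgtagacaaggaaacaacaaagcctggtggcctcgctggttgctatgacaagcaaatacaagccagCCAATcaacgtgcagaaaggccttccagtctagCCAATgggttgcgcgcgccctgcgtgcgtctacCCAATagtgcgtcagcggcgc
Kif11: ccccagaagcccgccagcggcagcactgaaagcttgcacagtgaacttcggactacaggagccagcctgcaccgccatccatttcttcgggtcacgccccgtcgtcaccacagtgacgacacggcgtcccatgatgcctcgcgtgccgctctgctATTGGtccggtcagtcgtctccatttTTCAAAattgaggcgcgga
Mki67: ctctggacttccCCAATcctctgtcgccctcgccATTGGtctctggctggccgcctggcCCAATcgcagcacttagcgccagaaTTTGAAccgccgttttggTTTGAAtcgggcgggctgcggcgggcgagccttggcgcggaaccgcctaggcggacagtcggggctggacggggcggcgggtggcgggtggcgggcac
Cenpf: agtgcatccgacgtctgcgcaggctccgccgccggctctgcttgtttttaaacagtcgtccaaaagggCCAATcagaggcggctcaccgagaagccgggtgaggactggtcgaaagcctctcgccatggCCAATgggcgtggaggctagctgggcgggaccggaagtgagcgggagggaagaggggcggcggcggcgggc

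In Mcm5 and Mcm6 the outermost E2F core letters began 153 and 110 bases before the start. The Kif11 stretch paired a CCAAT box 45 bases before the start with a CHR 19 bases before it, each read on the opposite strand. Mki67 held 2 CHR matches, 116 and 98 bases before the start, downstream of 3 CCAAT boxes. In the Cenpf stretch only CCAAT boxes were found, and its CHR letters lay elsewhere in the window of 300 bases.

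Over the full windows, 7 of 17 G1/S genes (41.2%) held an E2F core, against 3 of 21 G2/M genes (14.3%), 12.3% of the 10302 tested genes with a window and 7.65% of all 27025 genes with one. The 7 were Mcm3, Mcm5, Mcm6, Mcm7, Cdt1, Cdc6 and Uhrf1, all of them genes of replication licensing and the fork. CHR letters were held by 17 of 21 G2/M genes (81.0%) and 3 of 17 G1/S genes (17.6%), against 16.5% of tested genes. A CHR together with a CCAAT box was present in 16 of 21 G2/M genes (76.2%), 3 of 17 G1/S genes (17.6%) and 6.83% of tested genes. CCAAT boxes alone were common in all groups, at 85.7% of G2/M genes, 58.8% of G1/S genes and 42.5% of tested genes. These are matches of letters and not measurements of binding.

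**Figure D1:**
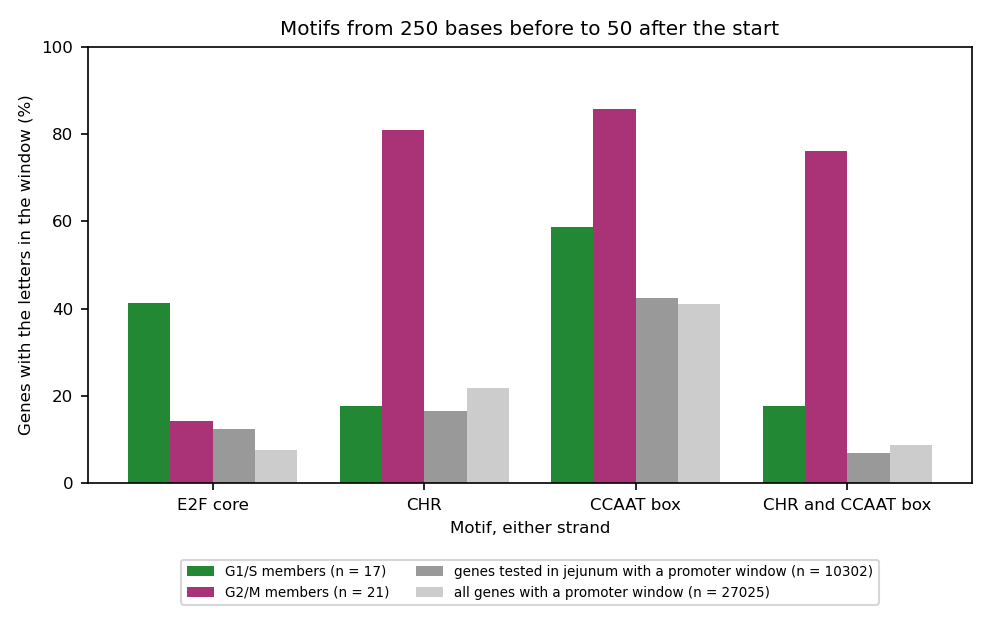
Share of genes (%, y axis) whose promoter window holds the letters of each element (x axis), for 17 G1/S genes, 21 G2/M genes, 10302 genes tested in jejunum and 27025 genes in all. CHR letters stand at 81.0% of G2/M genes and 17.6% of G1/S genes, and E2F core letters at 14.3% and 41.2%.

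Levels are given as normalized counts, that is, whole reads divided by 1 size factor per library, and genotypes were compared with limma on log2(normalized count + 1). Libraries held between 10145705 and 12371530 reads on genes. NDI1 itself had 0 reads in 4 control libraries and 1 read in the library Vil-Cre 3, and a normalized count of 982.2 to 2575 in the Vil-Cre:NDI1 libraries, with no overlap. Enterocyte markers were abundant in all 10 libraries (summed normalized count 367700 to 727400), and markers of smooth muscle, plasma cells, T cells, adipocytes and hepatocytes were also detected, so the tissue held more than epithelium. The library Vil-Cre 5 stood apart in markers of B cells and germinal centres, as described with the variation between mice.

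None of the 46 genes passed the test of the genotype difference, and 46 of 46 passed the filter on low counts (10 or more in 5 or more mice). At an adjusted p under 0.05 the count was 0 of 46, where 0.00699% of all 14301 genes tested (NDI1 alone) were called. At an unadjusted p under 0.05 it was also 0 of 46, against 4.24% of all genes tested. By edgeR and DESeq2 on the recovered reads the count was likewise 0 of 46 at either threshold, against 0.00699% and 0.183% of genes by adjusted p and 4.66% and 4.81% by unadjusted p. No gene had 5 mice of one genotype all above the 5 of the other, against 0.699% of all genes tested. On the 8 libraries whose reads are certain (without Vil-Cre 3 and Vil-Cre 4), DESeq2 and edgeR again called 0 of 46 at either threshold, against 1.77% and 0.00718% of genes by adjusted p and 8.11% and 8.67% by unadjusted p. Adjusted p-values lay between 0.998 and 0.999 (limma with Benjamini-Hochberg adjustment), and the smallest unadjusted p was 0.104, for Cdt1. Leaving out 1 mouse at a time gave 0 to 2 genes with an unadjusted p under 0.05 (Cdt1, Ccne1, Top2a, Pcna and Bub1b, each in 1 such fit), where 3.49% to 5.82% of all genes had one, and over all alternatives no adjusted p of these 5 genes was below 0.703.

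Log2 fold changes of Vil-Cre:NDI1 over Vil-Cre ran from -0.23 (Cdt1) to 0.62 (Ccne1), with a median of 0.043 against 0.0052 over all genes tested. They were above 0 in 29 of 46 genes (63.0%), against 51.2% of all genes tested. Rescaling libraries to equal totals lowered the median of all genes by 0.062 (log2), so that 22 of 46 and 36.2% of all genes lay above 0. Against the median of all genes 29 of 46 lay higher under either scaling, and the median of the 46 stood 0.038 above it in both. Among the 20 G1/S genes 10 were above 0 (median 0.003), and among the 26 G2/M genes 19 were (median 0.056). The 95% confidence interval lay wholly within a 2-fold change in either direction for 39 of 46 genes (84.8%), against 79.6% of all genes tested. For the other 7, Ccne1, Ccne2, Tyms, Bub1b, Kif2c, Prc1 and Cenpf, the interval reached past 2-fold on at least 1 side, so a change of that size lies within what these mice allow.

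**Figure D2:**
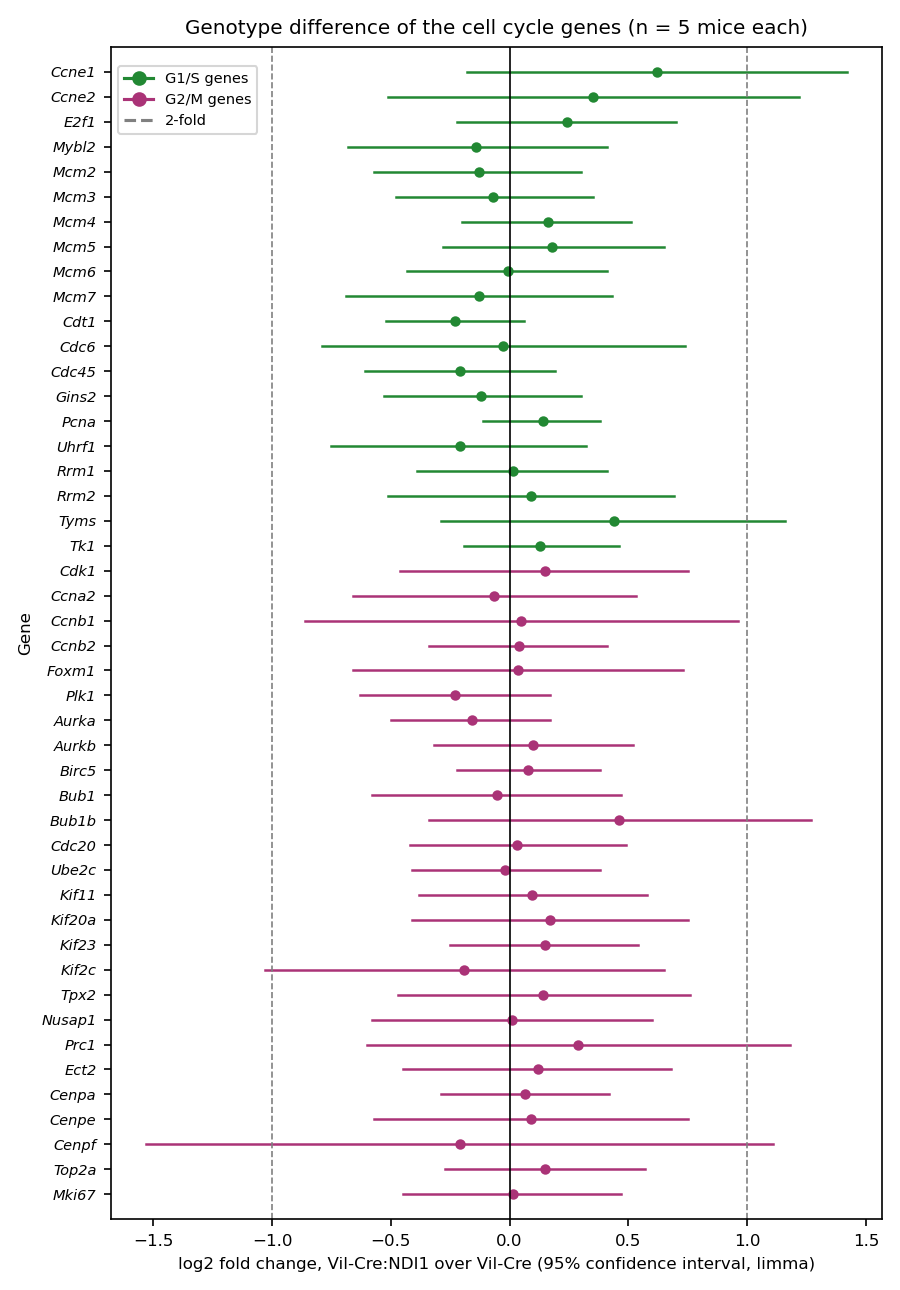
Log2 fold change of Vil-Cre:NDI1 over Vil-Cre (x axis, point) with its 95% confidence interval from limma (line) for the 46 genes (y axis), in green for G1/S and purple for G2/M, with dashed lines at 2-fold. Every interval crosses 0, and 39 of 46 stay between the dashed lines.

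The G1 and S phase regulators were 4 genes of low count, 3 of them with a log2 fold change above 0, and by limma included the largest value of the 46. Ccne1 (cyclin E1, ENSMUSG00000002068, chromosome 7, 38097984 to 38107534 in GRCm38) is the CDK2 partner that commits cells to S phase. Its normalized count was 40.2, 17.5, 16, 19.2 and 57.3 in Vil-Cre 1 to 5 and 27.4, 43.7, 46.5, 54.8 and 37.6 in Vil-Cre:NDI1 1 to 5. In Ccne1, 3 control mice lay below every Vil-Cre:NDI1 mouse, but Vil-Cre 5 lay above them all, so the groups overlapped. The log2 fold change was 0.62 with a standard error of 0.36 (limma, unadjusted p = 0.117). Without Vil-Cre 5 it was 0.89 (unadjusted p = 0.0174, adjusted p = 1.0 by limma), where 3.52% of all genes tested had an unadjusted p under 0.05. On all recovered reads, DESeq2 and edgeR gave Ccne1 0.48 and 0.46, less than the 0.52 and 0.51 they gave Bub1b.

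Ccne2 (cyclin E2) showed counts of 121, 39.4, 55.1, 39.4 and 77.7 in the controls and 43.1, 97.5, 86.2, 154 and 50.5 in Vil-Cre:NDI1 mice. The ranges of both genotypes overlapped widely, and the log2 fold change was 0.35 with a standard error of 0.39. Ccne2 shares 17.4% of its exon bases with Ints8 on the opposite strand, and since strand use in counting is not given in the sources used here, part of its reads may be those of Ints8. Mybl2, which encodes B-Myb, had 115, 88.6, 78.1, 87.0 and 145 in the controls and 80.4, 74.7, 63.9, 151 and 107 in Vil-Cre:NDI1 mice, a log2 fold change of -0.14 with a standard error of 0.25. Of the Mybl2 values in Vil-Cre:NDI1 mice, 2 lay below the range of the controls, 2 within it and 1 above it. E2f1, the activating E2F itself, averaged 55.4 in controls and 65.2 in Vil-Cre:NDI1 mice (log2 fold change 0.24, standard error 0.21).

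Of the 12 genes of replication licensing and the fork, 3 had a log2 fold change above 0 and 9 below it (median -0.093), and all 12 intervals lay within 2-fold. Pcna, the sliding clamp of the replicative polymerases (ENSMUSG00000027342, chromosome 2, 132249162 to 132253314), was the most abundant of the 46 per length, at 360 normalized counts per kb of exon, 10.1 times their median. Its counts were 870, 687, 853, 765 and 936 in Vil-Cre mice and 964, 942, 979, 929 and 709 in Vil-Cre:NDI1 mice. In Vil-Cre:NDI1 mice, 3 Pcna values lay above every control and 1 just under the highest control, whereas Vil-Cre:NDI1 5 lay near the lowest control. The log2 fold change was 0.14 with a standard error of 0.11, and it was 0.22 (limma, unadjusted p = 0.0433, adjusted p = 0.999) without Vil-Cre:NDI1 5, where 3.82% of all genes tested had an unadjusted p under 0.05.

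Cdt1 loads the MCM helicase onto origins and is destroyed once S phase begins. Its counts were 204, 156, 227, 175 and 198 in the controls and 145, 187, 173, 169 and 140 in Vil-Cre:NDI1 mice. All but 1 of the controls exceeded the Vil-Cre:NDI1 median, yet Vil-Cre 2 lay among the Vil-Cre:NDI1 values (log2 fold change -0.23, standard error 0.13). Leaving out Vil-Cre 2 gave -0.30 (limma, unadjusted p = 0.043, adjusted p = 1.0), where 3.73% of all genes tested had an unadjusted p under 0.05. Mcm6, a subunit of that helicase, had 574, 343, 307, 397 and 462 in the controls and 379, 414, 504, 477 and 286 in Vil-Cre:NDI1 mice, with means of 417 ± 106 and 412 ± 85.8 (SD, n = 5 mice each). The other helicase subunits Mcm2, Mcm3, Mcm4, Mcm5 and Mcm7 had log2 fold changes from -0.13 to 0.18. The origin factors Cdc6, Cdc45 and Gins2 had -0.03, -0.21 and -0.12, and Uhrf1, which carries DNA methylation through replication, had -0.21. Gins2 is uncertain in level, since 67.3% of its exon bases overlap Gse1 on the opposite strand, a gene with a mean normalized count of 1190.

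The 4 genes of deoxynucleotide synthesis all had log2 fold changes above 0, from 0.01 to 0.44, and none passed the test. Tyms, thymidylate synthase, had 153, 46, 77.1, 93.0 and 173 in the controls and 135, 155, 144, 154 and 86.9 in Vil-Cre:NDI1 mice. Its spread was wider in the controls (108 ± 53.1) than in Vil-Cre:NDI1 mice (135 ± 28.1, SD, n = 5 mice each), and the groups overlapped across the whole Vil-Cre:NDI1 range. Rrm1, the large subunit of ribonucleotide reductase, had 285, 207, 229, 286 and 374 in the controls and 270, 230, 278, 385 and 229 in Vil-Cre:NDI1 mice. Means of Rrm1 were nearly equal, at 276 ± 64.7 and 278 ± 63.7 (SD, n = 5 mice each), and the spread within each genotype was far larger than the difference between them. Tk1, the salvage enzyme thymidine kinase 1, had 340, 209, 243, 310 and 320 in the controls and 280, 304, 357, 335 and 266 in Vil-Cre:NDI1 mice (log2 fold change 0.13, standard error 0.15). Rrm2, the small reductase subunit, averaged 173 and 182.

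Mitotic cyclins and their kinase had 4 of 5 log2 fold changes above 0, all within 0.15 of 0. Cdk1 (ENSMUSG00000019942, chromosome 10, 69335146 to 69352938), the kinase that drives mitosis, had 143, 161, 146, 131 and 207 in Vil-Cre mice and 145, 145, 172, 371 and 113 in Vil-Cre:NDI1 mice. The value of Vil-Cre:NDI1 4 was far above the other 9 mice, and without that mouse the log2 fold change of 0.15 became -0.13. Ccnb1, cyclin B1, had 136, 60.2, 80.1, 164 and 224 in the controls and 151, 65.6, 229, 166 and 76.3 in Vil-Cre:NDI1 mice, so each genotype held mice at both ends of the range. Ccna2, cyclin A2, had 299, 167, 194, 381 and 438 in the controls and 264, 210, 263, 400 and 223 in Vil-Cre:NDI1 mice (log2 fold change -0.06, standard error 0.27), and 12.5% of its exon bases overlap Exosc9 on the opposite strand. Ccnb2, cyclin B2, and Foxm1, the mitotic transcription factor, had log2 fold changes of 0.04 and 0.04.

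The 8 genes of the mitotic kinases and the spindle checkpoint had a median log2 fold change of 0.006, with 4 above 0. Plk1, a kinase of mitotic entry and centrosome maturation, had 277, 232, 191, 287 and 356 in the controls and 191, 218, 228, 314 and 190 in Vil-Cre:NDI1 mice (log2 fold change -0.23, standard error 0.18). Ube2c, the ubiquitin-conjugating enzyme of the anaphase-promoting complex, had 285, 225, 264, 258 and 374 against 296, 220, 288, 385 and 212. Both groups of Ube2c values covered the same range, with means of 281 ± 56.0 and 280 ± 69.7 (SD, n = 5 mice each). Bub1b, which encodes the checkpoint protein BubR1, had 109, 103, 71.1, 153 and 205 in the controls and 290, 217, 126, 208 and 76.3 in Vil-Cre:NDI1 mice. In Bub1b, 3 Vil-Cre:NDI1 mice exceeded all controls and Vil-Cre:NDI1 5 was near the level of the lowest control (log2 fold change 0.46, standard error 0.37). Without Vil-Cre:NDI1 5 it was 0.74 (limma, unadjusted p = 0.0406, adjusted p = 0.999). The Aurora kinases Aurka and Aurkb, survivin (Birc5), Bub1 and Cdc20 had log2 fold changes from -0.16 to 0.10.

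Spindle motors and cytokinesis genes had 7 of 8 log2 fold changes above 0 (median 0.13), none past the test. Kif11, the motor that separates spindle poles, had 160, 127, 149, 215 and 239 in the controls and 198, 144, 192, 276 and 144 in Vil-Cre:NDI1 mice. Kif23, a motor of the central spindle, had 189, 143, 136, 225 and 197 against 186, 151, 201, 263 and 182. In both genes the highest value belonged to Vil-Cre:NDI1 4 and the lower control values to Vil-Cre 2 and Vil-Cre 3. Kif2c, Kif20a, Tpx2, Nusap1, Prc1 and Ect2 ranged from -0.19 (Kif2c) to 0.29 (Prc1).

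Of the chromosomal proteins, Mki67 and Top2a were the most abundant by read count. Mki67, the Ki-67 antigen that coats mitotic chromosomes and is used to stain cycling cells (ENSMUSG00000031004, chromosome 7, 135689784 to 135716361), had 835, 588, 612, 1023 and 1124 in Vil-Cre mice and 868, 655, 831, 1155 and 666 in Vil-Cre:NDI1 mice. Both genotypes spanned about the same range, and their means were 836 ± 240 and 835 ± 203 (SD, n = 5 mice each). The log2 fold change of Mki67 was 0.01, with a 95% interval of -0.45 to 0.47. Top2a, the topoisomerase that untangles replicated chromosomes, had 699, 611, 605, 610 and 1137 in the controls and 785, 714, 750, 1101 and 648 in Vil-Cre:NDI1 mice. In Top2a, 4 controls lay close together and Vil-Cre 5 lay above every other mouse, and without it the log2 fold change of 0.15 became 0.32 (limma, unadjusted p = 0.0461, adjusted p = 1.0). The centromere genes Cenpa and Cenpe had log2 fold changes of 0.06 and 0.09.

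Cenpf, a kinetochore protein of late G2 and mitosis (ENSMUSG00000026605, chromosome 1, 189640606 to 189688086), was chosen for description after its values were seen. It had 109, 430, 261, 114 and 342 in Vil-Cre mice and 133, 66.5, 108, 466 and 518 in Vil-Cre:NDI1 mice. High and low mice occurred in each genotype, and the highest was 7.78 times the lowest, the widest range among the 46. The within-genotype coefficient of variation of Cenpf was 69.6%, or 10.9 times what counting of its reads alone would give, and its standard error of 0.60 was the largest of the 46.

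**Figure D3:**
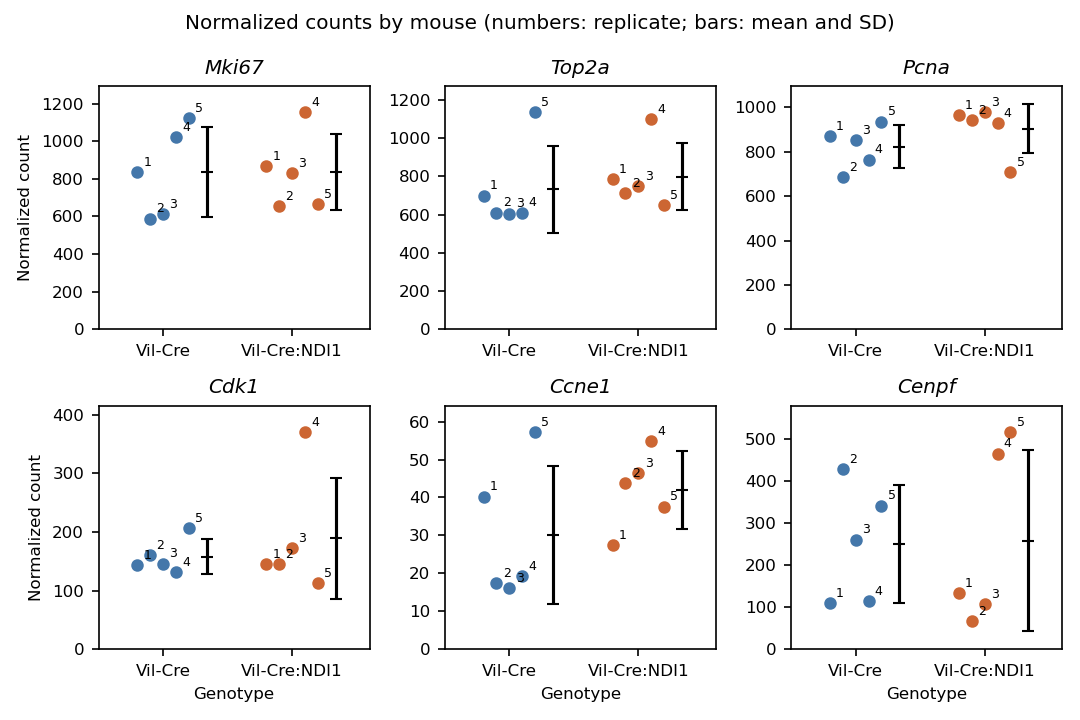
Normalized count (y axis, from 0) of 6 genes in each mouse, by genotype (x axis), with the replicate number beside each point and the mean and SD as a black bar (n = 5 mice each). Vil-Cre 5 and Vil-Cre:NDI1 4 hold the top values of Top2a (1137 and 1101), and Cenpf ranges from 66.5 to 518.

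The variation between mice was larger than that between genotypes and ran in the same direction across most of the genes. Within a genotype the coefficient of variation was 12% (Pcna) to 69.6% (Cenpf) with a median of 26.6%, and in 41 of 46 genes it exceeded 2 times the counting error of the reads. For each mouse, the level of the 46 genes was taken as the median of their log2 deviations from each gene's mean over the 10 mice. Expressed as a fold, it was 1.05, 0.782, 0.826, 1.0 and 1.34 in Vil-Cre 1 to 5 and 0.997, 0.853, 1.05, 1.42 and 0.824 in Vil-Cre:NDI1 1 to 5. A single mouse of each genotype was thus clearly high (Vil-Cre 5 and Vil-Cre:NDI1 4), and low mice also occurred in both (Vil-Cre 2, Vil-Cre 3 and Vil-Cre:NDI1 2 and 5). On the log2 scale the mice of either genotype had an SD of 0.31, against group means of -0.03 and 0.01.

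Single genes followed these levels. In Vil-Cre 5, 46 of 46 genes lay above their own median over the 10 mice, and in Vil-Cre:NDI1 4, 44 of 46 did. The corresponding numbers were 28, 7, 6 and 25 in Vil-Cre 1 to 4, and 24, 15, 29 and 6 in Vil-Cre:NDI1 1, 2, 3 and 5. Vil-Cre:NDI1 4 held the highest value of 20 genes and Vil-Cre 5 that of 11, while the lowest value of 16 genes was in Vil-Cre 2, of 12 in Vil-Cre:NDI1 5, of 8 in Vil-Cre 3 and of 8 in Vil-Cre:NDI1 2. Summed over the 46 genes, normalized counts ran from 7883 to 12850 (median 9887) in Vil-Cre mice and from 8251 to 13490 (median 9862) in Vil-Cre:NDI1 mice.

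**Figure D4:**
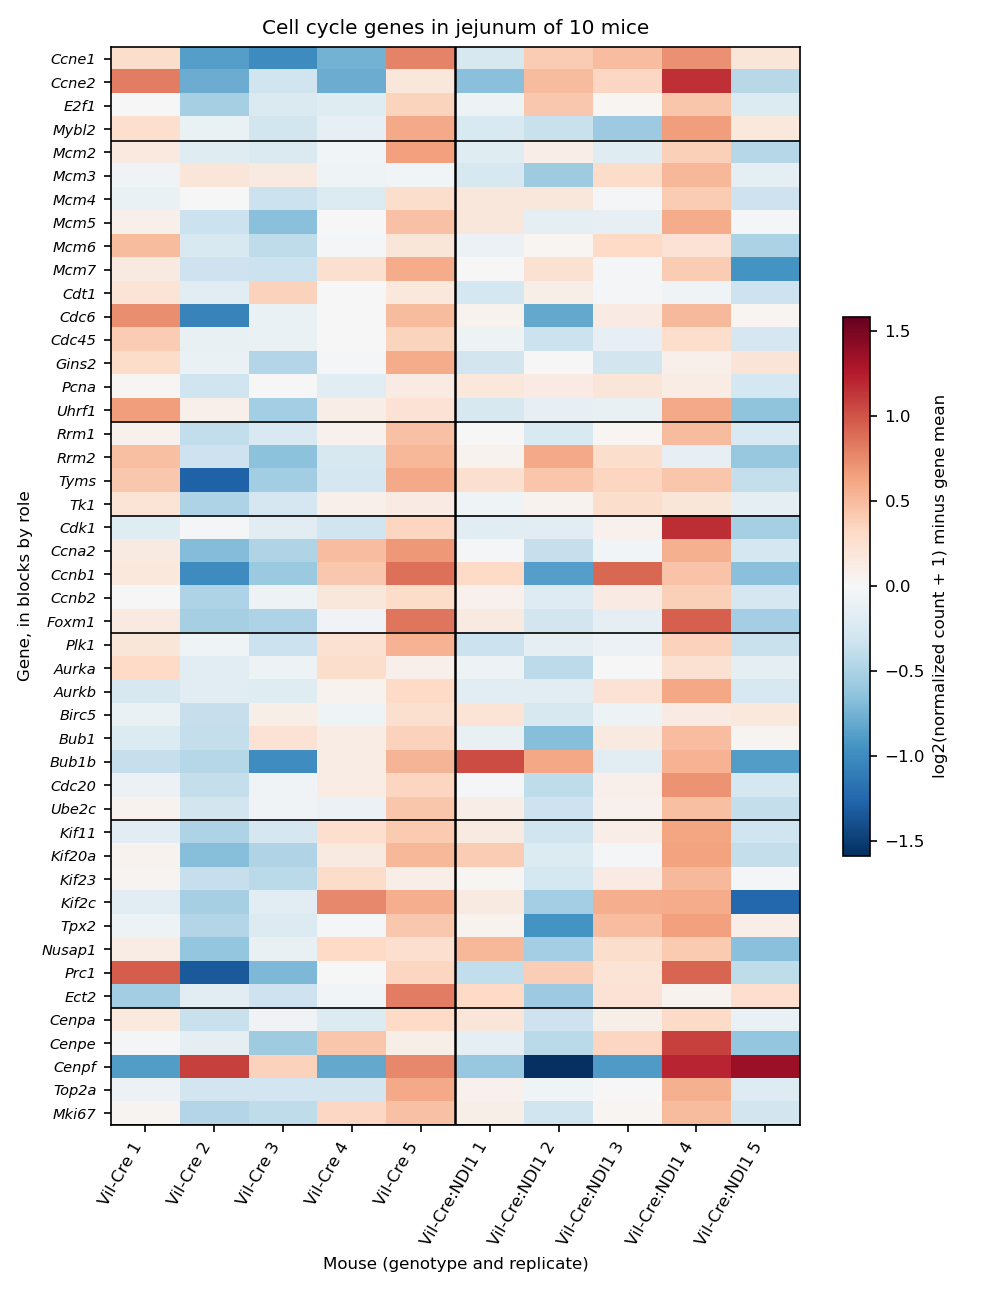
Deviation of log2(normalized count + 1) from each gene's mean (color scale, log2) for the 46 genes (y axis, in blocks by role) in the 10 mice (x axis, controls left of the line). The columns of Vil-Cre 5 and Vil-Cre:NDI1 4 are red for nearly all genes, with 46 and 44 of 46 above their median, and the row of Cenpf departs from the rest.

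With the genotype mean removed, the median correlation of the 1035 pairs of the 46 genes over 10 mice was 0.59, and 95.7% of pairs were above 0. Over all pairs of the 14301 genes tested the median was -0.0017 and 49.8% were above 0. The points of each correlation are the same 10 libraries, and the values are descriptions. Pairs of G2/M genes had a median of 0.69, pairs of G1/S genes 0.60 and pairs across the phases 0.53. Leaving out Vil-Cre 5 or Vil-Cre:NDI1 4 lowered the median over all pairs from 0.59 to 0.53, so it did not rest on either mouse alone.

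Correlation of a gene with the level of the other 45 was highest for Rrm1 (0.99) and at least 0.7 in 32 of 46 genes. In 6 genes it was under 0.5: Cenpf (0.10), Cdt1 (0.22), Mcm3 (0.41), Rrm2 (0.42), Ect2 (0.47) and Birc5 (0.48). Cdt1, Mcm3 and Rrm2 belong to G1/S and the others to G2/M, and both Cenpf and Ect2 have a CHR with a CCAAT box, so the 6 came from both phases. By role, the median correlation was lowest for the G1 and S phase regulators and for licensing and the fork (both 0.70) and highest for the mitotic cyclin group (0.90).

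The 2 phases did not move in full step in every mouse. The G1/S level exceeded the G2/M level by 0.39 (log2) in Vil-Cre:NDI1 2 and by 0.25 in Vil-Cre 1, and fell below it in Vil-Cre 4 (-0.16), Vil-Cre:NDI1 1 (-0.15) and Vil-Cre:NDI1 4 (-0.14). In Vil-Cre:NDI1 2, G1/S genes stood at 1.05 times and G2/M genes at 0.803 times their mean. In the same mouse 12 of 20 G1/S genes and 3 of 26 G2/M genes lay above their own median over the 10 mice. Tyms had 155, the highest value of its group, while Ccnb1 had 65.6, the lowest. Not every gene followed, since the G1/S genes Cdc6 (23.7), Cdc45 (46.5) and Mcm3 (128) also had their group's lowest value there. Across the 10 mice the levels of the phases correlated at r = 0.82 (Spearman's rho = 0.68), and at 0.54 without the 2 mice farthest from the median.

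Genes outside the 46 that followed the same pattern were sought by their correlation with the level of the 46 over the 10 mice. The 5 highest were Zfp317 (0.99), Nek2 (0.98), Ptma (0.97), Spc24 (0.97) and Cpt1a (0.96). Nek2 is a centrosomal kinase and Spc24 a kinetochore subunit, while Cpt1a is the carnitine palmitoyltransferase of mitochondrial fatty acid import. Among the 50 most alike genes, 8 belonged to a list of other cell cycle genes (81 of the 14301 genes tested). The other 42 belonged to none of the lists used here.

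That list of 81, which holds further cyclins, replication factors and kinetochore and condensin subunits, moved with the 46 in level (r = 0.97, rho = 0.88, and 0.93 without the 2 farthest mice). All 81 were tested, 0 passed an adjusted p under 0.05 by limma, and 44 had log2 fold changes above 0 (median 0.023). At an unadjusted p under 0.05, 1 of 81 was higher in Vil-Cre:NDI1 mice and 0 were lower, against 2.13% and 2.11% of all genes tested. The gene was Wee1, the kinase that holds CDK1 inactive before mitosis. Its counts were 158, 95.2, 159, 102 and 85.5 in the controls and 277, 201, 187, 152 and 200 in Vil-Cre:NDI1 mice. Wee1 overlapped between genotypes only through Vil-Cre:NDI1 4, which lay below Vil-Cre 1 and Vil-Cre 3 (log2 fold change 0.78, standard error 0.21, limma unadjusted p = 0.0038, adjusted p = 0.998). In DESeq2 on the 8 libraries other than Vil-Cre 3 and Vil-Cre 4 its adjusted p was 0.042, with 1.77% of genes called there, and over all alternatives it ranged from 0.042 to 1. Cdk6 and Cdc25b had the next smallest p-values of the list, with log2 fold changes of -0.38 and -0.35.

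Brakes on the cycle were 17 genes, among them CDK inhibitors, pocket proteins and antiproliferative factors, of which 16 were tested and Cdkn2a was too low. Of these, 0 passed either threshold by limma, and the median log2 fold change was -0.029, with 6 above 0. The 3 smallest p-values belonged to Cdkn2d (log2 fold change -0.32), Rb1 (0.16) and Cdkn1c (-0.25). The list's median level had an SD of 0.06 and 0.08 (log2) in the 2 genotypes, against 0.31 for the 46 cell cycle genes. Such a median can stay flat where genes move in different directions, and single brakes did vary. Normalized counts ran from 42.1 to 107 for Cdkn1c, 41.2 to 85.2 for Cdkn2d and 556 to 760 for Rb1. The list level correlated with that of the 46 at r = 0.07 (rho = 0.30), or r = 0.50 without the 2 farthest mice.

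Markers of other cells were read beside these levels. Crypt stem cell markers (10 genes) had a median log2 fold change of -0.15 and correlated with the level of the 46 at r = 0.47. Among them Lgr5 had 135, 95.2, 93.2, 79.9 and 49.5 in the controls and 57.8, 58.3, 64.9, 115 and 31.7 in Vil-Cre:NDI1 mice (log2 fold change -0.51, standard error 0.33), and Olfm4 had a log2 fold change of 0.05. Rnf43 alone of this list had an unadjusted p under 0.05 (limma, log2 fold change -0.63, adjusted p = 0.998). In Vil-Cre 5, where cell cycle genes were highest among controls, Lgr5 was lowest of the controls, whereas in Vil-Cre:NDI1 4 Lgr5 was highest of its group.

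Vil-Cre 5 also had the highest summed level of markers of B cells and germinal centres, whose cells divide rapidly. The B cell marker Ms4a1 (CD20) had a normalized count of 236 in Vil-Cre 5 and 0 to 7.83 in the other 9 mice. Over the 13 genes of the list, of which 13 had reads and 5 passed the filter, summed counts were 320.5 to 2054 in the controls (median 373.7), highest in Vil-Cre 5, and 281.1 to 331.3 in Vil-Cre:NDI1 mice. Enterocyte markers had their lowest sum, 367700, in the same library. The part of these cells in the cell cycle levels of Vil-Cre 5 was not tested. Vil-Cre:NDI1 4, whose cell cycle level was 1.42 times the mean, had Ms4a1 at 7.83. In that mouse T cell markers stood at 1.65 and Paneth cell markers at 1.44 times their means. By this median level other mice stood higher, such as 1.81 for T cells in Vil-Cre 4 and 1.62 for Paneth cells in Vil-Cre 2. By summed normalized count, Paneth cell markers were highest in Vil-Cre:NDI1 4, at 154100 against 146300 in Vil-Cre 2. The part of these cells in the cell cycle level of Vil-Cre:NDI1 4 was not tested. The B cell list correlated with the level of the 46 at r = 0.67, or 0.39 without the 2 farthest mice. Without Vil-Cre 5 the median log2 fold change of the 46 genes was 0.14, with 37 of 46 above 0, and without Vil-Cre:NDI1 4 it was -0.081, with 16 above 0.

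**Figure D5:**
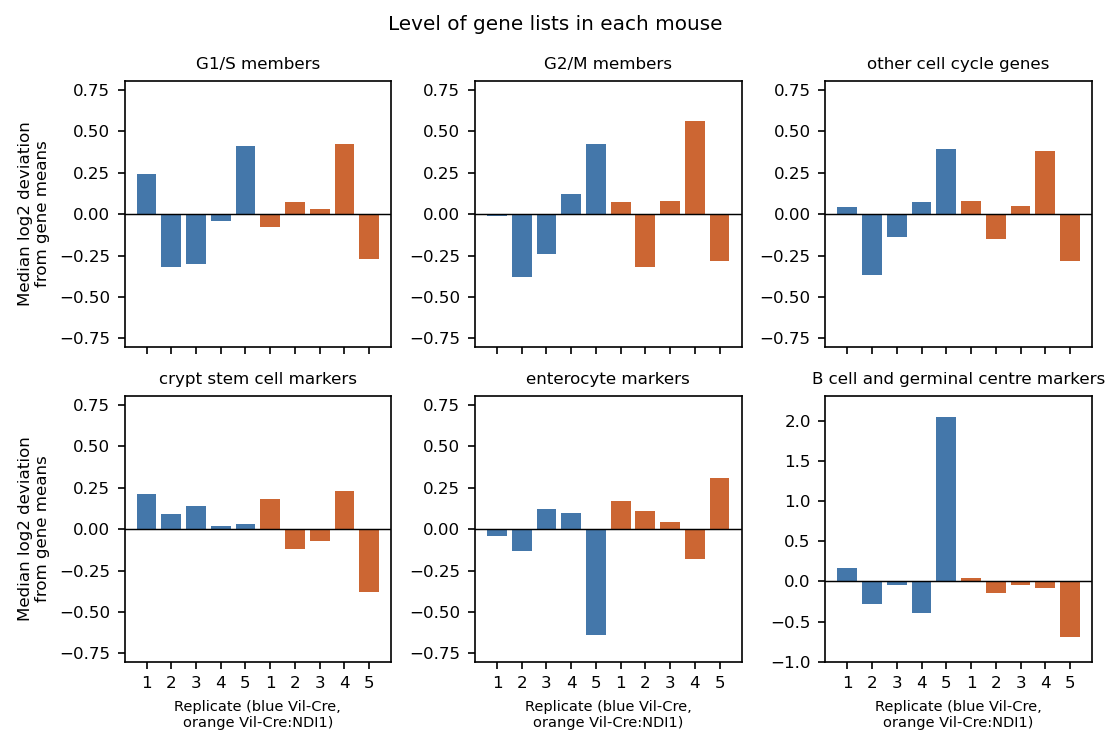
Median log2 deviation from gene means (y axis) of 6 gene lists in each mouse (x axis, replicates 1 to 5, blue for Vil-Cre and orange for Vil-Cre:NDI1). The panel of B cell and germinal centre markers has a wider axis, where Vil-Cre 5 reaches 2.05, and Vil-Cre 5 and Vil-Cre:NDI1 4 are the highest mice of their genotypes in the 3 cell cycle panels.

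Enterocyte markers had log2 fold changes above 0 in 11 of 11 genes (median 0.24), against 51.2% of all genes tested. Goblet cell markers had them in 0 of 7 (median -0.21), and no gene of either list had an unadjusted p under 0.05 by limma. The enterocyte level was -0.64 (log2) in Vil-Cre 5, -0.13 to 0.12 in the other controls and -0.18 to 0.31 in Vil-Cre:NDI1 mice. The goblet cell level was -0.55 in Vil-Cre:NDI1 5, -0.22 to 0.24 in the others of that genotype and -0.2 to 0.41 in controls. The enterocyte level correlated with the level of the 46 at r = -0.76 (rho = -0.60), but at -0.15 without the 2 farthest mice, so the relation rested on those mice. Paneth cell markers (7 tested) had a median of -0.14, with Lyz1 at 0.01, T cell markers (10) -0.12, plasma cell markers (7) -0.099, smooth muscle markers (7) -0.065 and adipocyte markers (5) 0.065, with none at an unadjusted p under 0.05. The B cell list had a median of -0.71. Of its 5 tested genes, 2 (Rgs13 and Bcl6) were lower at an unadjusted p under 0.05 by limma, against 2.11% of all genes tested. The list level was 2.05 (log2) in Vil-Cre 5, -0.39 to 0.16 in the other controls and -0.69 to 0.04 in Vil-Cre:NDI1 mice. The hepatocyte list had a median of -1.4. By limma, 3 of its 5 tested genes (Alb, Apoa2 and Ttr) were lower at an unadjusted p under 0.05. None passed the adjusted threshold. Over all genes tested the share was 2.11%. Genes of a list can vary together, so no excess is read for the B cell or hepatocyte list. The hepatocyte level (log2) was 2.42, 0.19, 0.82, -1.32 and 1.34 in Vil-Cre 1 to 5. All Vil-Cre:NDI1 levels, -1.17 to -0.14, lay inside that spread. Summed normalized counts of the list averaged 3896 for controls against 3816 for the other genotype. The summed normalized count of a library correlated with the level of the 46 at r = -0.72, and the median pair correlation was 0.66 after rescaling to equal totals. Its part in the shared variation was not tested otherwise.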

How the data were processed

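Whole jejunum RNA of 10 mice (5 per genotype) was sequenced single-end, with a library for each mouse. Before deposit, the authors used trimGalore! for trimming, STAR for alignment to GRCm38 plus NDI1, Salmon for assignment to genes and DESeq2 for scaling. The deposited signal is a normalized count per gene, whole reads divided by 1 size factor per library, and no per-sample column was left unused. Dividing by the value of 1 read gave whole numbers for 100% of non-zero values in every library (within 0.001 read, or within a share of 1e-06 above 1000 reads), but for Vil-Cre 3 and Vil-Cre 4 that value is too near 1 (1.00184 and 1.01109) to tell this from rounding. The annotation release and strand setting are not given in the sources used here, so genes whose exons overlap another gene (14 of the 46) are uncertain.

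Genotypes were compared with limma 3.58.1 (R 4.3.3) on log2(value + 1) with a variance trend, over the 14301 genes that reached 10 in 5 or more mice, and p-values were adjusted by Benjamini-Hochberg (threshold 0.05). The added 1 lowers log2 fold changes of low counts a little, as in Ccne1 (0.62, or 0.64 with a pseudocount of 0.1). The count models gave that gene smaller values, 0.48 by DESeq2 and 0.46 by edgeR on recovered reads. Alternatives were DESeq2 1.42.0 and edgeR 4.0.16 on recovered reads, 2 pseudocounts, 2 filters, 2 scalings, limma settings, a replicate block, and leaving out each mouse. The scripts were tested on simulated data. Lengths and positions came from GENCODE M21 (45143 of 45707 IDs found), and promoters from RefSeq. The 6 printed stretches were those with the required letters that lie outside the annotated gene and have the highest correlation with the other genes, plus Cenpf. The genes, lists and tests were chosen with earlier results of these data known. Values by mouse are given for the 2 most abundant genes and the one with the smallest p in each of 7 roles, with Mki67, Pcna, Ccnb1 and Ccne1. Of other genes, the 3 with the smallest p in each cell cycle list, 5 cell type markers and the 5 genes most alike are named; 1 further marker is not reported here and was left out of its list. No pair of replicates was alike enough to be 1 library (smallest chi-square per gene 13.16), so all were kept. Intervals cover the spread between mice.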

Additional observations from a re-analysis of the deposited data

Results flagged for a closer look

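Values far from the others of their genotype were sought with Dixon's test at the 95% level (critical value 0.71 for 5 mice). Of 78 groups of 5 values, 9 were marked. Chance would mark about 3.9 of 78 independent groups. These groups share 10 libraries, and some genes were named for small p-values, so no excess over chance can be read from the 9. Among the cell cycle genes, Ccna2 was 400 in Vil-Cre:NDI1 4 (others 210 to 264) and Cdk1 was 371 in the same mouse (others 113 to 172). Top2a was 1137 in Vil-Cre 5 (other controls 605 to 699). Pcna was 709 in Vil-Cre:NDI1 5 (others 929 to 979), and Tyms was 86.9 there (others 135 to 155).

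Of the genes outside the 46, Cdk6 was 489 in Vil-Cre 5 (other controls 231 to 273) and Ms4a1 was 236 in that mouse (others 0 to 6.07). Lyz1, the lysozyme of Paneth cells, was 56440 in Vil-Cre:NDI1 4 (others 13690 to 21330), and Rb1 was 749 in Vil-Cre 2 (others 556 to 577). Each mouse with such a value was kept in the genotype comparison, apart from the values given as computed without it.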

How the results depend on the processing

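Of the recomputed counts and medians over the 46 genes, 5 moved, all on leaving out 1 mouse, and 164 did not, where a move is a count changed by over 1.5 times, a median log2 fold change shifted by the SD between mice (0.31 for the 46, 0.29 for G1/S and 0.33 for G2/M genes) or a median correlation shifted by 0.1. This margin is wide for medians near 0, of which 19 of 69 recomputed changed sign. The number of genes with an adjusted p under 0.05 was 0 in all alternatives run. The number with an unadjusted p under 0.05 was 0 to 2 on leaving out 1 mouse (1 without Vil-Cre 2, 2 without Vil-Cre 5 and 2 without Vil-Cre:NDI1 5) and 0 in the other alternatives. The number with a log2 fold change above 0 ran from 16 (without Vil-Cre:NDI1 4) to 37 (without Vil-Cre 5), with 19 without Vil-Cre 2. The median log2 fold change ran from -0.081 to 0.14 on leaving out 1 mouse and was -0.019 after rescaling to equal totals, where that of all genes was -0.057. The counts over 8 libraries leave out Vil-Cre 3 and Vil-Cre 4 and were added after seeing the data, as was following the number above 0 and the pair correlation through the alternatives.

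Single genes near 0 changed sign in 57 recomputations and in 1 (Wee1) crossed the threshold, against 649 with neither. Rescaling to equal totals lowered the median of all genes by 0.062 and each gene named here by 0.062 to 0.063, which by itself turned the sign of those nearest 0. Under that scaling the log2 fold change was -0.013 for Ccnb1, -0.058 for Lyz1, -0.048 for Mki67, -0.017 for Olfm4 and -0.049 for Rrm1. For the other alternatives the cause was not tested. After quantile normalization the log2 fold change was -0.068 for Lyz1 and -0.017 for Mki67. With array weights the log2 fold change was -0.25 for Lyz1. In DESeq2 on all recovered reads the log2 fold change was 0.039 for Cenpf and -0.0027 for Mki67. In edgeR on all recovered reads the log2 fold change was 0.02 for Cenpf, -0.015 for Mki67 and -0.0026 for Rrm1. In DESeq2 on 8 libraries the log2 fold change was -0.029 for Ccnb1, -0.34 for Lyz1, -0.024 for Mki67, -0.054 for Rrm1 and -0.029 for Top2a. In edgeR on 8 libraries the log2 fold change was -0.038 for Ccnb1, -0.35 for Lyz1, -0.033 for Mki67, -0.062 for Rrm1 and -0.037 for Top2a. On leaving out 1 mouse the range was, by gene, Ccna2 -0.24 to 0.1, Ccnb1 -0.19 to 0.28, Cdk1 -0.13 to 0.3, Cenpf -0.57 to 0.16, Kif11 -0.047 to 0.21, Lyz1 -0.33 to 0.2, Mcm6 -0.11 to 0.12, Mki67 -0.11 to 0.13, Olfm4 -0.13 to 0.32, Rrm1 -0.11 to 0.13 and Ube2c -0.14 to 0.089. Wee1 passed the adjusted threshold in 1 alternative, DESeq2 on 8 libraries.

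With the replicate number as a block, 0 of 46 genes had an adjusted or an unadjusted p under 0.05 and the median log2 fold change was 0.043, so the block changed no call. Same-numbered mice did not deviate together (correlations from -0.116 to 0.136), and they share only a number. Cdc6 and other genes of low count had wide counting error (up to 16.7%, for Ccne1), and at a minimum of 50 the filter left 44 of 46 genes.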
